A study of Mus musculus with 2 samples.

Results

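The uroplakins are the membrane proteins that tile the apical surface of the urothelium, the epithelium that lines the urinary tract. Upk1a and Upk1b are tetraspanins, and each folds with its own partner in the endoplasmic reticulum, Upk1a with Upk2 and Upk1b with Upk3a. The pairs then assemble into rigid plaques that vesicles carry to the surface of the superficial cells. In mice, loss of Upk2 or Upk3a is known to disturb these plaques and to lead to hydronephrosis.

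The 4 genes Upk1a, Upk1b, Upk2 and Upk3a were taken by name from the array, and all 4 were among the 19801 genes tested. Upk3b, which is made by mesothelium, was not counted among them. Ureters were compared between Gata6cKO embryos, with the genotype Tbx18(cre/+);Gata6(fl/fl), and control embryos, with the genotype Gata6(fl/?), all of the strain NMRI and at the embryonic stage E14.5. Both genotypes carry at least 1 floxed Gata6 copy, the second control copy is not specified, and the labels of the controls name no cre. Cre is driven by Tbx18, which is active in ureteric mesenchyme, whereas uroplakins are products of the epithelium that this mesenchyme surrounds. Cre, the altered Tbx18 copy and the loss of Gata6 cannot be told apart in this design. Each of 2 two-colour arrays held 1 Gata6cKO RNA and 1 control RNA, from males on the replicate 1 array and from females on the replicate 2 array, with the dyes exchanged between the arrays. The labels do not say how many embryos or litters stand behind each RNA, so the spread between these samples may be technical. The p-values and intervals rest mainly on the spread between arrays pooled over all genes, with 11.9 prior and 1 residual degrees of freedom. A gene's own gap between the arrays counts little in them.

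Between 67.2% and 68.5% of the spots of gene probes passed the scanner software's test of being well above background, by channel. Precision is limited by there being 2 arrays. Gata6 itself had a log2 ratio of 0.65 ± 0.12 (Gata6cKO over control, moderated SE, n = 2 arrays; limma adjusted p = 0.00612). The male array gave 0.85 and the female array 0.46. Where its probe lies relative to the floxed part was not analysed here, so this value checks nothing about the labels. It did not pass when arrays were centred on the median (adjusted p = 0.625), when dim probes were kept (0.0712) or when the channels were fitted separately (0.052).

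Each uroplakin was read by 1 probe of 60 bases, printed as 4 spots on each array, so that 16 spots per array read the uroplakins. An outlier spot of Upk1a on the male array and 1 of Upk1b on the female array were left out of the values below. The last 30 bases of each probe, from the scanner files, are shown as part of the 60 bases that stand for the gene. Capitals mark the polyadenylation signal AATAAA where a probe holds it.
Upk1a: gttggctggacacccAATAAAtactggctg
Upk1b: gacgactctcattcctgtctatgtttaatg
Upk2: ctcttaactgtacttaattctcacAATAAA
Upk3a: aaatgacacacgactcacagatcacccagg
The probes lie, on mm9, at chr7:31388111-31388170 on the minus strand for Upk1a, chr16:38773859-38773918 on the minus strand for Upk1b, chr9:44260822-44260881 on the minus strand for Upk2, and chr15:84851819-84852720 on the plus strand for Upk3a. The Upk3a probe covers 902 bases of genome with its 60 bases, so the sequence it matches in the transcript is interrupted in the genome. The AATAAA string ends 9 bases before the end of the Upk1a probe and closes the Upk2 probe. No run of over 7 bases was common to any 2 of the 4 full probes. All 4 spots of every uroplakin probe were well above background in all 4 RNAs, and none was saturated.

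All 4 uroplakins fell in Gata6cKO ureters, by between 2.39-fold and 3.94-fold. At a limma adjusted p under 0.05, 2.35% of all genes tested were lower and 2.2% were higher in Gata6cKO, so that 4 of 4 stood against 2.35%. Among the 19801 genes, ordered by log2 ratio from the lowest, Upk1b came in place 1, Upk1a in place 13, Upk2 in place 20 and Upk3a in place 28. In whole ureters, fewer cells of a type and less RNA per cell cannot be told apart.

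**Figure D1:**
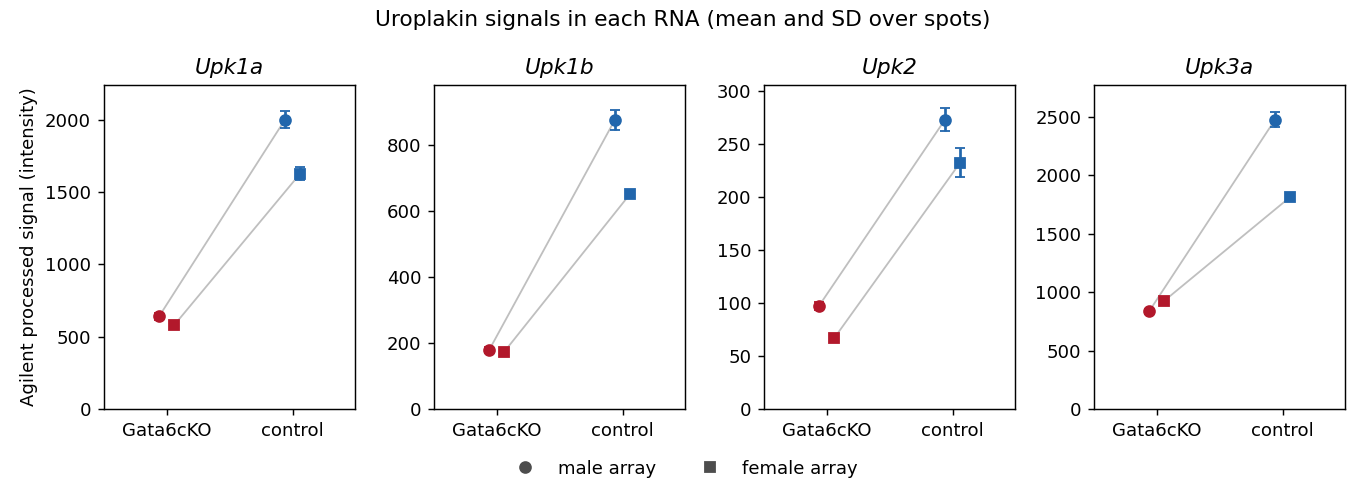
Agilent processed signal (intensity, linear axis from 0) of each uroplakin in Gata6cKO and control RNA. Points are means and bars SD over the spots of the probe that were not outliers, circles stand for the male and squares for the female array, and grey lines join the RNAs of 1 array. Both Gata6cKO points of each gene lie below both control points, with Upk1b at 179 and 174 against 877 and 652.

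Of the tetraspanins, Upk1b, the partner of Upk3a, had a processed signal of 179 ± 9.9 (SD over 4 spots) in the male and 174 ± 3.1 (3 spots) in the female Gata6cKO RNA, against 877 ± 29.8 and 652 ± 9.0 in the male and female control RNA. Both Gata6cKO values were far below both control values, and they were 20.4% and 26.6% of the control on their own array. Its log2 ratio was -1.98 ± 0.12 (moderated SE, n = 2 arrays; 95% interval -2.24 to -1.71; limma adjusted p = 2.11e-06). The male array gave -2.18 and the female array -1.78.

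The other tetraspanin, Upk1a, the partner of Upk2, had a processed signal of 640 ± 21.9 (3 spots) in the male and 580 ± 21.1 (4 spots) in the female Gata6cKO RNA, against 2000.1 ± 61.0 and 1627 ± 43.3 in the male and female control RNA. The genotypes did not overlap, and the Gata6cKO signals were 32.0% and 35.7% of their controls. Its log2 ratio was -1.54 ± 0.11 (95% interval -1.78 to -1.30; limma adjusted p = 4.81e-06), and the arrays gave -1.61 (male) and -1.46 (female).

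The single-span partners fell as well. Upk2, a small protein that is cleaved from a longer precursor, had a processed signal of 97.5 ± 3.8 in the male and 66.9 ± 2.2 in the female Gata6cKO RNA, against 273 ± 10.8 and 232 ± 13.7 in the male and female control RNA (4 spots each). The genotypes did not overlap, and the female Gata6cKO RNA was the lowest of the 4 RNAs. The log2 ratio of Upk2 was -1.40 ± 0.11 (95% interval -1.65 to -1.16; limma adjusted p = 9.5e-06), from -1.31 (male array) and -1.50 (female array). The ratio was -1.45 with no background correction, -1.52 with an offset of 10, -1.64 with Agilent's processed signals and -1.65 with the deposited series values. With the last pair of settings, and on the female array, Upk2 lay below Upk1a, which was at -1.56, -1.58 and -1.46.

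Upk3a had a processed signal of 836 ± 23.7 in the male and 926 ± 14.54 in the female Gata6cKO RNA, against 2474 ± 65.7 and 1813 ± 26.6 in the male and female control RNA (4 spots each). The genotypes did not overlap, but the female array showed the smallest fall of any uroplakin on either array, with Gata6cKO at 51.1% of control, against 33.8% on the male array. Its log2 ratio was -1.26 ± 0.14 (95% interval -1.55 to -0.96; limma adjusted p = 0.000116). The arrays stood at -1.55 (male) and -0.96 (female).

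The spots of a probe repeated each other closely. The SD of the log2 ratio over the spots of 1 uroplakin probe on 1 array lay between 0.012 and 0.056. The gap between the log2 ratios of the male and the female array was 0.15 for Upk1a, 0.20 for Upk2, 0.40 for Upk1b and 0.59 for Upk3a, each larger than those spot SDs. Over all genes tested the median gap was 0.16 and the 90th percentile 0.41, and 547 genes had a larger gap than Upk3a. Sex, dye and the RNAs themselves differ together between the arrays and cannot be told apart. Under a rule of at least 2-fold lower on both arrays, which 0.212% of all genes met, Upk1a, Upk1b and Upk2 were included and Upk3a was not, since its log2 ratio on the female array was -0.96.

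The partners of a pair were compared by the difference of their log2 ratios within an array. Upk1b minus Upk3a was -0.62 (male array) and -0.82 (female array), so that the tetraspanin lay below its partner on both. Upk1a minus Upk2 was -0.31 (male array) and 0.04 (female array), with opposite signs. Upk1b lay below each of the other 3 uroplakins on both arrays, by between 0.28 and 0.87. These differences between probes were not tested.

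**Figure D2:**
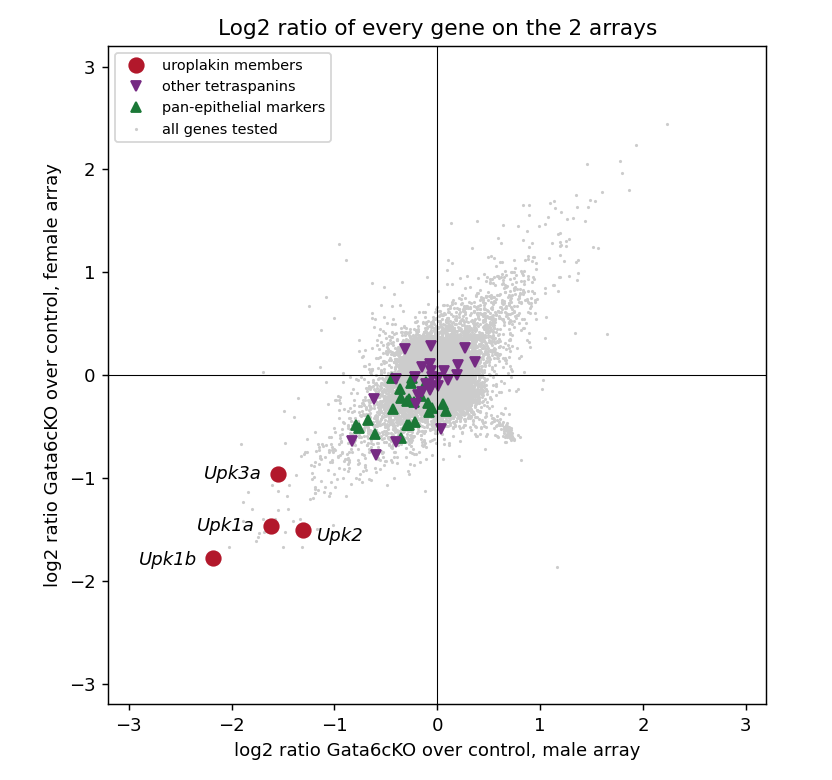
Log2 ratio of Gata6cKO over control of every gene tested on the male array (horizontal axis) and on the female array (vertical axis). Red circles are the 4 uroplakins, green triangles the pan-epithelial markers, purple triangles the other tetraspanins and grey dots all genes. The uroplakins lie at the lower left, between -2.18 and -1.31 on the male array and between -1.78 and -0.96 on the female array.

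Genes of epithelia in general had log2 ratios closer to 0. Of 24 markers found in most epithelia, 5 fell, none rose and 19 did not pass (20.8% lower, beside 2.35% of all genes), with a median log2 ratio of -0.25, beside -0.0019 over all genes tested. All 24 had a mean log2 ratio below 0, from -0.64 to -0.09. The falls included Cdh1, the adhesion protein E-cadherin, at -0.64 ± 0.12, the tight junction scaffold Tjp3 at -0.64 ± 0.12, the splicing regulator Esrp2 at -0.59 ± 0.11 and the claudin Cldn4 at -0.55 ± 0.11, with -0.23 at its other probe (n = 2 arrays each). The summed processed signal of the 24 markers was 31871 and 31581 in the male and female Gata6cKO RNA, against 39603 and 38034 in the male and female control RNA. Minus the median of this list on the same array, the log2 ratios of the uroplakins were between -1.90 (Upk1b) and -1.03 (Upk2) for the male array and between -1.48 (Upk1b) and -0.66 (Upk3a) for the female array. The part of the epithelial share in the fall of the uroplakins was not tested. Of the 24 markers, 0 passed with median centring, 2 when dim probes were kept and 3 when channels were fitted separately. All 24 stayed below 0 with median centring. Keeping dim probes and fitting channels separately left the main ratios as they were, so no sign could change there.

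Of 14 measured genes on a list for uroplakin traffic and plaque delivery, 2 fell, none rose and 12 did not pass (14.3% lower, beside 2.35% of all genes), with a median of -0.11. Not every gene on this list is a carrier of uroplakins to the surface. The GTPase Rab27b, which is found on the vesicles that bring uroplakins to the apical membrane, fell by 1.56 ± 0.14 on the log2 scale (2.95-fold; limma adjusted p = 2.69e-05). The male array gave -1.89 and the female array -1.23, and the mean at its other probe was -1.46. Mal, a membrane protein that helps these vesicles to fuse, fell by 0.96 ± 0.13 (1.94-fold). The vesicle motor Myo5b had a log2 ratio of -0.37 ± 0.11 and Rab27a, the relative of Rab27b, one of 0.29 ± 0.12, and neither passed. Snx31, a sorting protein of the path that degrades uroplakins, was too dim to be tested.

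Of 18 transcription factors of urothelial differentiation, 5 fell, none rose and 13 did not pass (27.8% lower, beside 2.35% of all genes), with a median of -0.22. Grhl3, a Grainyhead-like factor that mouse urothelium needs for its superficial cells, fell by 1.14 ± 0.11 (2.20-fold; limma adjusted p = 4.24e-05). The Krüppel-like factor Klf5 fell by 0.86 ± 0.11 (1.82-fold), the nuclear receptor Pparg by 0.58 ± 0.11 and the forkhead factor Foxa1 by 0.57 ± 0.12 on the log2 scale. Trp63, a factor of basal cells named here after its values were seen, did not pass at its brightest probe (-0.15), and its other 3 kept probes stood at -1.23, -0.98 and -0.46. With median centring 2 of the 18 passed, and Pparg and Foxa1 did not. When the channels were fitted separately or dim probes were kept, 3 passed, and Foxa1 did not.

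Of 10 measured keratins of the urothelium, 3 fell, none rose and 7 did not pass (30% lower, beside 2.35% of all genes), with a median of -0.33. Krt20, a keratin of superficial cells, fell by 1.06 ± 0.13 (2.08-fold), from -1.33 (male array) and -0.79 (female array). Krt15, a keratin of basal cells of stratified epithelia, fell by 1.04 ± 0.12 (2.06-fold) and Krt19 by 0.86 ± 0.11 (1.81-fold). Krt7, a keratin of simple epithelia and urothelium, did not pass (log2 ratio -0.37 ± 0.11).

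**Figure D3:**
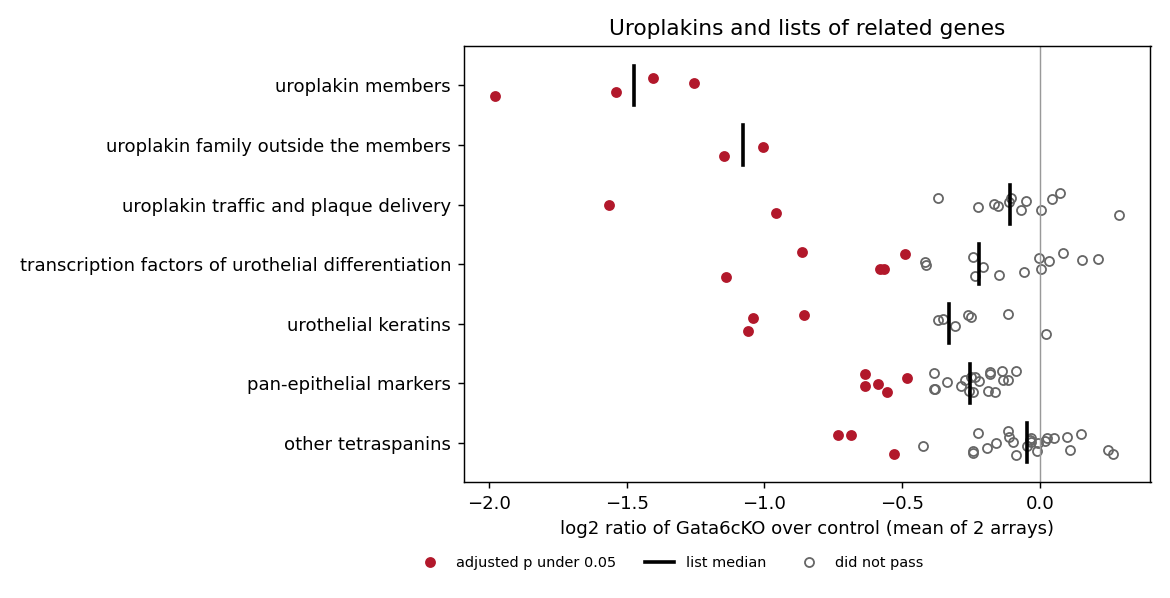
Log2 ratio of Gata6cKO over control (mean of 2 arrays) of each measured gene of the uroplakins and of 6 lists of related genes. Filled red circles passed at a limma adjusted p under 0.05, open circles did not, and black lines are list medians. The uroplakins lie between -1.98 and -1.26, and the 24 pan-epithelial markers between -0.64 and -0.09.

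Upk1a and Upk1b were set beside the rest of the tetraspanin family. Of 27 other tetraspanins 3 fell and none rose (11.1% lower, beside 2.35% of all genes), which left 24 that did not pass, around a median log2 ratio of -0.05. Tspan1, Tspan7 and Tspan8 fell by 0.73 ± 0.11, 0.69 ± 0.11 and 0.53 ± 0.12 on the log2 scale. Tspan15, at -0.42 ± 0.12 and at -0.06 with its other probe, did not pass. With median centring 0 of the 27 passed, and 1 did when the channels were fitted separately.

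The 2 remaining genes named uroplakin also fell. Upk3b had a processed signal of 10.1 ± 1.7 and 8.5 ± 1.8 in the male and female Gata6cKO RNA, against 48.8 ± 4.1 and 42.9 ± 4.5 in the male and female control RNA. It was not well above background in Gata6cKO, with 1 and 2 of its 4 spots above it, and was at least 2.17-fold lower (limma adjusted p = 3.94e-05). This bound sets the control mean against the lowest signal well above background, or the probe's own signal where that was higher. Upk3bl, a relative of Upk3b, fell by 1.00 ± 0.13 on the log2 scale (2.01-fold), from -1.26 (male array) and -0.75 (female array), and its other probe stood at -0.99.

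Markers of other cell types of the dissected tissue were counted in the same way, beside 2.35% of all genes lower and 2.2% higher, and their processed signals were summed (male, then female RNA). Of 13 markers of ureteric mesenchyme and smooth muscle 6 fell and 0 rose, with sums of 135900 and 134690 in Gata6cKO, against 191400 and 171510 in control RNA. The neuron and glia list of 15 had 12 that rose and 0 that fell, with sums of 31789 and 35227 in Gata6cKO, against 29021 and 25630 in control RNA. The nephron and collecting duct list of 13 had 7 that rose and 0 that fell, with sums of 17323 and 19927 in Gata6cKO, against 12811 and 13282 in control RNA. Its loop of Henle markers Umod and Slc12a1 were too dim to be tested.

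The 10 mesothelium markers included 3 that fell and 2 that rose, with sums of 59410 and 55563 in Gata6cKO, against 67378 and 65506 in control RNA. Wt1 and Rspo1 rose, by 1.22 ± 0.11 and 1.55 ± 0.11 on the log2 scale, and Msln, Upk3b and Krt19 fell. This list shares Krt8, Krt18 and Krt19 with the keratins of the urothelium. Krt18 and Krt8 had its highest mean intensities, so its sums also carry epithelial keratin signal. The erythroid list of 10 had 3 that fell and 0 that rose, with sums of 95102 and 82383 in Gata6cKO, against 122480 and 110890 in control RNA. The endothelial list of 10 had 1 that fell and 0 that rose, with sums of 25049 and 25434 in Gata6cKO, against 26160 and 25182 in control RNA. The skeletal muscle list of 9 had 4 that rose and 0 that fell, with sums of 6915 and 4837 in Gata6cKO, against 6695 and 5988 in control RNA, and the myogenic factor Myf5 was too dim to be tested. The endothelial sums differed in opposite directions on the 2 arrays, and so did those of skeletal muscle. Actc1 had the highest mean intensity of the skeletal muscle list and so weighs most in its sums. It was the only measured gene of that list with a mean log2 ratio below 0, at -0.35, and did not pass. With median centring, the markers that passed numbered 3 in the mesenchyme, 9 in the neuron, 0 in the nephron, 0 in the erythroid, 0 in the endothelial and 1 in the skeletal muscle list. With separate channels these were 4, 11, 3, 1, 0 and 0, in the same order, and with dim probes kept they were 5, 9, 2, 0, 0 and 3. The mesothelium list kept 3 that fell and 2 that rose under each of these settings. The part of these cell types in the fall of the uroplakins was not tested.

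The genes most like the uroplakins were taken by the distance of their log2 ratios from the uroplakin medians, -1.58 (male array) and -1.48 (female array). This likeness rests on 2 arrays, and genes with clone or placeholder names were left out of the choice. The nearest 10 lay within 0.221, from Tmprss13, a membrane serine protease, at 0.0846, over the prostaglandin-degrading enzyme Hpgd at 0.0852 and the actin-binding protein Cnn1 at 0.111, to the water and glycerol channel Aqp3 at 0.221. The other 6 were Aldh3b2, Car3, Rasgrf1, Sprr1a, Mgat4c and Shisa2. Their log2 ratios over both arrays, which this choice fixes, lay between -1.69 and -1.41. Mgat4c, at the -1.41 end, had 3 of its 4 spots well above background in the female Gata6cKO RNA and all 4 in the other RNAs, and its ratio was -2.43 with Agilent's processed signals and -2.48 with the deposited series values. Tmprss13 and Aldh3b2 stood at -1.94 and -1.98 with Agilent's processed signals.

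RefSeq promoter windows of 250 bases before to 50 bases after the gene start were at hand for 2 of the 4 uroplakins, Upk1a and Upk3a, on GRCm38.p6. The 250 bases before the start are shown, with motif matches in capitals. Whether these promoters have a part in the fall of the genes was not tested.
Upk1a: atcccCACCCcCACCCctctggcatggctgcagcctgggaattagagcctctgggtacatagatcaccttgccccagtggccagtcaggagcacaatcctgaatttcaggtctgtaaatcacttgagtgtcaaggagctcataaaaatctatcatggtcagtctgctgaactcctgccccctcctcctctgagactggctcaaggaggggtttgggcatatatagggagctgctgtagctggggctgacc
Upk3a: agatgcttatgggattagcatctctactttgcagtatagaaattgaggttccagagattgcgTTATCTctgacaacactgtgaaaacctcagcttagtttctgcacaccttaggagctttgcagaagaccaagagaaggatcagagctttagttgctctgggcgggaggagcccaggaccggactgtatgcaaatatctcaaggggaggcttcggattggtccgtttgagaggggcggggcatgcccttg
The Upk1a stretch is chr7:30612735-30612984 on the minus strand, and the Upk3a stretch chr15:85016891-85017140 on the plus strand. The letters CACCC, which KLF and SP factors can bind, were found 2 times in the Upk1a window and not in the Upk3a window, and 57.5% of 32851 RefSeq windows of this length hold them on either strand. The GATA letters AGATAA were found once in the Upk3a window, on its other strand, with the match beginning 188 bases before the start, and not in the Upk1a window, and 11.2% of all windows hold them. Neither window held a second GATA string, TGATAA, which 9.05% of all windows hold. The Grainyhead-like string AACCNGTT, present in 2.09% of all windows, was in neither. The same held for the forkhead string TGTTTAC, present in 3.65%. No TATA box string TATAAA, present in 13.6%, was found in either window, and other forms of the TATA box were not searched. The ETS string CCGGAA is held by 14.9% of all windows and by neither of these. Likewise the retinoic acid receptor string AGGTCA is held by 16.3% of all windows and was in neither. Both strands were searched, and a match is a string of letters, not a binding site.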

How the data were processed

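The members and gene lists were chosen with earlier results of these data known. Per the file headers, the deposited scanner files hold raw mean and local background intensity per spot and dye, a processed intensity (detrended, lowess dye-normalized) and the log10 ratio of Cy5 to Cy3 made from it. The authors used Agilent Feature Extraction, whose version 10.7.3.1 stands in the submitters' processing notes. The deposited series values are a score per probe. Set against the scanner files they read as a signed fold of Gata6cKO over control, with no value between -1 and 1, column medians of 1 and a Pearson r of 0.985 and 0.980 with the processed log2 ratios over 26200 probes. How the authors summarised spots is not given in the sources used here. Tables had 0 unused columns of per-sample values.

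Raw intensities were corrected with normexp (offset 50) and loess-normalised within arrays in R 4.3.3 with limma 3.58.1, with control and outlier spots at weight 0, and the spots of a probe were averaged. Probes were kept with at least 3 of 4 spots well above background in 1 genotype on both arrays (26200 of 39429 probes), and the brightest probe stood for a gene. Symbols came from RefSeq GRCm38.p6, which matched 28328 probes by accession. Log2 ratios of Gata6cKO over control, with the sign turned on the swapped array, were fitted with lmFit and eBayes (1 residual and 11.9 prior degrees of freedom, prior SD 0.162) and p-values were adjusted over all 19801 genes (Benjamini-Hochberg, threshold 0.05). The pipeline was tested on simulated data. Lists are described by counts and medians, with no set test. Named genes were the 4 uroplakins, Upk3b, up to 4 genes per list with the smallest p, Gata6 and the 10 nearest genes, and Upk3bl is in a list of 2. Several lists share genes, 5 in all. Alternatives covered background, dye and between-array normalization, the filter, the probe summary, the prior, separate channels, the deposited values and leaving out an array.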

Additional observations from a re-analysis of the deposited data

How the results depend on the processing

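Each uroplakin stayed lower in Gata6cKO, and passed, under all 12 alternatives with a test. Those of the filter, the probe summary, the prior and separate channels kept the main ratio of each uroplakin by construction. So did Aquantile normalization between arrays. In these the direction could not change, only the p-value. The log2 ratio ranged between -1.58 and -1.53 for Upk1a, between -2.10 and -1.98 for Upk1b, between -1.65 and -1.40 for Upk2 and between -1.29 and -1.25 for Upk3a, and the largest adjusted p was 0.025, for Upk3a when dim probes were kept. With 1 array left out, which leaves a value with no test, the ratio ranged between -1.61 and -1.46 for Upk1a, -2.18 and -1.78 for Upk1b, -1.50 and -1.31 for Upk2 and -1.55 and -0.96 for Upk3a. The number of all genes lower and higher, 465 and 436 of 19801, was 100 and 90 with median centring. It was 267 and 275 when the channels were fitted separately, and 795 and 672 with the deposited series values. When dim probes were kept, it was 229 and 248 of the 29875 genes then tested. Among 37 other genes the text or its rule names, 21 of 442 comparisons lost the call, 10 of them with median centring, 4 gained it and 0 changed direction. Many of these comparisons likewise kept the main ratio by construction, so their direction could not change. The cause of the lost and gained calls was not tested. The genotypes are paired on an array, and every fit of ratios rests on that pairing. Signal over background limits Upk3b, which was close to background in Gata6cKO.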
